A study of Homo sapiens with 5 samples.

Results

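Collagen genes were taken as the rows of the deposited table whose symbol is COL, a number, A and a number, with nothing after it, and whose category is protein-coding. There were 44 such genes among 18568 rows, of which 7928 were protein-coding. They were grouped as 11 fibrillar, 8 basement membrane, 5 beaded and 20 other collagens. The last group held 10 fibril-associated, 4 transmembrane and 3 hexagonal network genes, the anchoring fibril gene COL7A1, and COL26A1 and COL28A1.

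RNA was sequenced from IMR90, a line of normal human lung fibroblasts, infected with a retroviral vector that expresses RASV12, a constantly active RAS protein that drives these cells into senescence. One group was transfected with an antagomir against miR-146a (3 libraries, marked A, B and C), and the other with a control antagomir (2 libraries, marked B and C). An antagomir is a chemically modified antisense oligonucleotide that blocks a microRNA. The question the design poses is which transcripts differ when miR-146a is blocked in RAS-senescent fibroblasts. All 5 libraries carry RASV12, and all cells were selected with 1.5 ug/ml puromycin for 3 days, seeded on day 10 after infection and transfected 24 hours later. The labels give the harvest as 24 after transfection without a unit. All libraries come from 1 cell line, and nothing in the labels says that they came from separate cultures, so that a p-value here measures how these particular libraries vary, which may be a technical matter.

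Collagens are secreted proteins built from 3 chains wound into a triple helix. Fibrillar collagens form the cables that give lung tissue its tensile strength, type IV collagens form the sheet-like network of basement membranes, and type VI collagen forms beaded filaments around cells. Fibroblasts are the main source of fibrillar collagen in the lung, and miR-29 is a well-known repressor of many collagen mRNAs. miR-146a is best known for repressing adaptors of inflammatory receptor signalling.

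Values are reads divided by a library size factor, called normalized reads here. The rows of the table held 8430859, 8748287 and 8500545 reads in anti-miR-146a libraries A, B and C, and 8556206 and 9283950 in control libraries B and C. Both C libraries differed from the remaining 3. Of 6317 tested genes, 24.3% had both C libraries above the other 3 and 20.3% had both below. Values of the named collagen genes are therefore given library by library, and the plot of log2 fold changes shows each tested collagen gene also from a model with a term for the C libraries (the C term). The 6 fibroblast markers with a row, of 10 listed, summed to between 101361 and 121101 normalized reads in anti-miR-146a libraries and between 98346 and 129478 in control libraries, and FN1 made up most of each sum. With the antagomir alone in the model, limma called 0 of the 6 (adjusted p 0.533 for CALD1 and 0.416 for DDR2). With the C term it called 2 of the 6 lower, against 6.79% of all tested genes. They were CALD1 (log2 fold change -0.45, adjusted p 0.0081) and DDR2 (-0.37, adjusted p 0.0218). The 5 epithelial markers with a row, of 8 listed, summed to between 56.6 and 94.9 in anti-miR-146a libraries and between 75.6 and 99.3 in control libraries. Most of that sum was CLDN4 and ELF3, and CDH1 was at 0 in all libraries but 1. In limma ELF3 was called lower with the C term (-1.21, adjusted p 0.0231) but not with the antagomir alone (adjusted p 0.535). The 5 endothelial markers with a row, of 7 listed, summed to between 63.0 and 111 in anti-miR-146a libraries and between 60.1 and 96.1 in control libraries. The 4 leukocyte markers with a row, of 6 listed, summed to at most 17.9 in anti-miR-146a libraries and 17.2 in control libraries, with CD3E at 0 throughout. The 4 smooth muscle markers with a row, of 5 listed, summed to between 2912 and 4429 in anti-miR-146a libraries and between 3388 and 4667 in control libraries, nearly all of it ACTA2 and ACTG2, which contractile fibroblasts also express. The part of these markers in the results was not tested. In these bulk libraries, fewer cells of a type and less RNA per cell cannot be told apart.

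The mature microRNA that the antagomir is directed at and miR-29a-3p are shown with their seeds (bases 2 to 8) in capitals. Matches to both were searched for in the collagen 3′ UTRs. How far miR-146a was blocked in these libraries was not tested. The sequences are from RefSeq (GRCh38.p14), at chr5:160485372-160485393 on the plus strand for miR-146a-5p and chr7:130876748-130876769 on the minus strand for miR-29a-3p.
hsa-miR-146a-5p: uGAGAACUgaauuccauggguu
hsa-miR-29a-3p: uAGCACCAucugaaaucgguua

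For miR-146a-5p the 7-base matches were AGTTCTC and also GTTCTCA, and the 8-base match that spans both was AGTTCTCA. For miR-29a-3p the 7-base matches were TGGTGCT and also GGTGCTA, and the 8-base match was TGGTGCTA. Matches were read on the transcript strand in the longest annotated 3′ UTR of GENCODE 29. A miR-146a-5p match was present in 5 of 44 collagen genes (11.4%), against 1397 of 7752 protein-coding genes of the table with a 3′ UTR (18.0%). A miR-29a-3p match was present in 27 of 44 collagen genes (61.4%), against 1366 of 7752 (17.6%). The full 8-base match to miR-29a-3p was in 19 collagen genes (43.2%), against 3.20% of the protein-coding genes. The median 3′ UTR was 1240 bases long in collagen genes and 1067 bases in the protein-coding genes. With the transcript of longest coding sequence instead, the miR-146a-5p share was 11.4% of collagen genes and 15.2% of the protein-coding genes. The miR-29a-3p share was then 65.9% and 14.5%.

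The miR-146a-5p matches of the 3 genes tested for expression that had one are shown with the match in capitals (GRCh38, all on the minus strand, written 5′ to 3′ on the transcript). They lie in the 3′ UTRs of COL1A1 (chr17:50184940-50184968), COL6A3 (chr2:237324548-237324576) and COL10A1 (chr6:116118971-116118999). Those of COL4A3 and COL9A1 are in genes with almost no reads.
COL1A1: ggggacctgggGTTCTCAgactgccaaag
COL6A3: tgtctccaggcAGTTCTCtcgaatacttt
COL10A1: agcaatttgctGTTCTCAaccattctttc

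An 8-base miR-29a-3p match is shown for each of COL3A1 (chr2:189012005-189012034, plus strand), COL7A1 (chr3:48564311-48564340, minus strand) and COL8A1 (chr3:99798749-99798778, plus strand). They are examples from a fibrillar, an anchoring fibril and a hexagonal network collagen, with the match that the search fixed in capitals. COL3A1 has another 8-base match, at base 682 of its 3′ UTR, that is not shown.
COL3A1: aaatgtctcaaTGGTGCTAtaataaataaa
COL7A1: gtccctcccctTGGTGCTAgaggcttgtgt
COL8A1: gcattctacaaTGGTGCTAatctcagacct

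**Figure D1:**
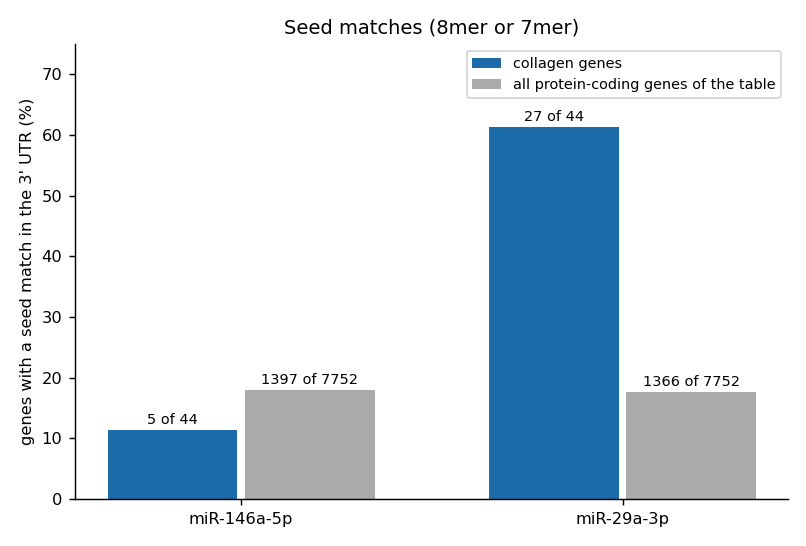
Share of genes (y axis, percent) with an 8mer or 7mer seed match in the 3′ UTR, for collagen genes and for all protein-coding genes of the table with a 3′ UTR. The miR-146a-5p share was 11.4% in collagen genes and 18.0% in all, and the miR-29a-3p share was 61.4% and 17.6%.

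Expression was then set beside the matches. Among tested collagen genes, the 3 with a miR-146a-5p match had a median log2 fold change (anti-miR-146a over control) of -0.01, and the 30 without one had a median of -0.02. For miR-29a-3p, the medians were -0.01 over 21 genes with a match and -0.01 over 12 without. With the C term the medians with and without a match were 0.087 and 0.014 for miR-146a-5p, and 0.020 and 0.014 for miR-29a-3p. COL4A1 and COL6A2, among the 12, had 2 and 1 matches in the transcript with the longest coding sequence. These medians describe the genes, and no test was made of them.

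Levels of different genes were compared as normalized reads per kilobase of exon. COL6A2 and COL6A1, 2 chains of type VI collagen, had the highest means over the 5 libraries, at 9115 and 8810 per kilobase. COL12A1, a fibril-associated collagen that links fibrils to their surroundings, followed at 3314, and COL6A3 and COL1A1 had 2889 and 2855. The ranges over libraries of COL12A1, COL6A3 and COL1A1 overlapped, so that their order is not beyond the spread. COL4A1 (1641), COL1A2 (1581) and COL4A2 (1471) formed a further overlapping group. COL5A2 (853), COL3A1 (679) and COL7A1 (658) came next, again with overlapping ranges. With the longest transcript in place of the union of exons, COL12A1 ranked 7 and COL4A2 ranked 4, and the highest 10 genes were the same set.

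**Figure D2:**
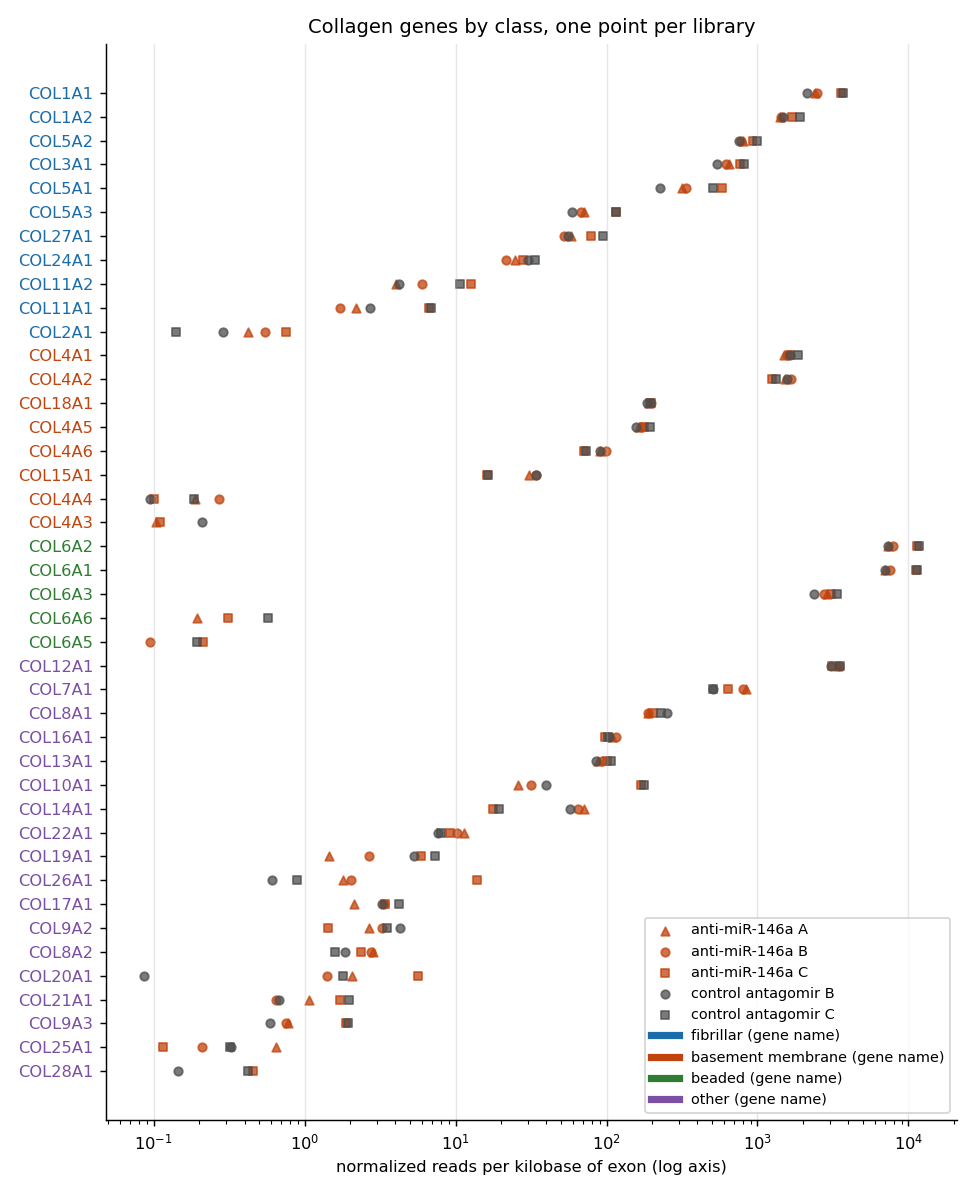
Normalized reads per kilobase of exon (log x axis) of every collagen gene with reads, 1 point per library, anti-miR-146a and control libraries in different colours and letters as marker shapes. Values at 0 are left off. The type VI chains COL6A2 and COL6A1 lie highest, with means of 9115 and 8810.

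Of the 44 genes, 33 had a value of at least 10 normalized reads in at least 2 libraries and were tested, and 11 were not. The untested genes were COL2A1, COL4A3, COL4A4, COL6A5, COL6A6, COL9A1, COL9A3, COL23A1, COL25A1, COL26A1 and COL28A1. COL9A1 and COL23A1 had 0 reads in every library, which allows up to 3 reads in a library by counting error alone. COL8A2 passed the filter only through its anti-miR-146a libraries, and COL21A1 only through the 2 C libraries. COL20A1 reached 10 in every anti-miR-146a library but in only 1 control library, so it would not have passed on its controls. COL26A1, a low gene that was not tested, had 6, 7 and 43 reads in anti-miR-146a libraries A, B and C, against 2 and 3 reads in control libraries B and C, so that most of its reads lay in 1 library.

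None of the 33 tested collagen genes passed an adjusted p of 0.05 in limma's test with the antagomir alone in the model, and 0% of the 6317 genes tested did. At an unadjusted p under 0.05 there were 2 collagen genes, COL7A1 on the higher side, as for 6.7% of all tested genes, and COL8A1 on the lower side, as for 4.62%. The log2 fold change was above 0 in 15 collagen genes and below 0 in 18, with a median of -0.01, and 50.9% of all tested genes were above 0. The groups did not overlap in 7 of 33 genes (21.2%). All anti-miR-146a libraries lay above both controls in COL7A1, COL22A1 and COL8A2, a pattern found in 16.5% of all tested genes, and all lay below in COL4A1, COL24A1, COL8A1 and COL9A2, a pattern found in 13.5%. COL8A2 passed the filter only through the group where it is high, so its place among the 3 supports nothing, and neither count is above those shares. In the authors' deposited table, 1 of 30 collagen genes with an adjusted p was under 0.05, which is close to the 2.57% of the table's genes with an adjusted p. With DESeq2 on the recovered reads 0 collagen genes were called, against 0.792% of all tested genes, and with edgeR 0, against 0%.

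With a term for the C libraries, limma called 4 of 33 collagen genes (12.1%), which is under the 15.4% it called among all tested genes. COL7A1, COL5A1 and COL20A1 were higher with the anti-miR-146a antagomir (8.64% of all tested genes were) and COL8A1 was lower (6.79% were). COL20A1 needed its anti-miR-146a libraries, where it is high, to pass the filter, so its place among the calls of any fit supports nothing. With the letter as a block limma called 3 collagen genes, against 10.1% of all tested genes, and without both C libraries it called 8, against 24.6%. The anti-miR-146a group holds 1 C library of 3 and the control group 1 of 2.

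**Figure D3:**
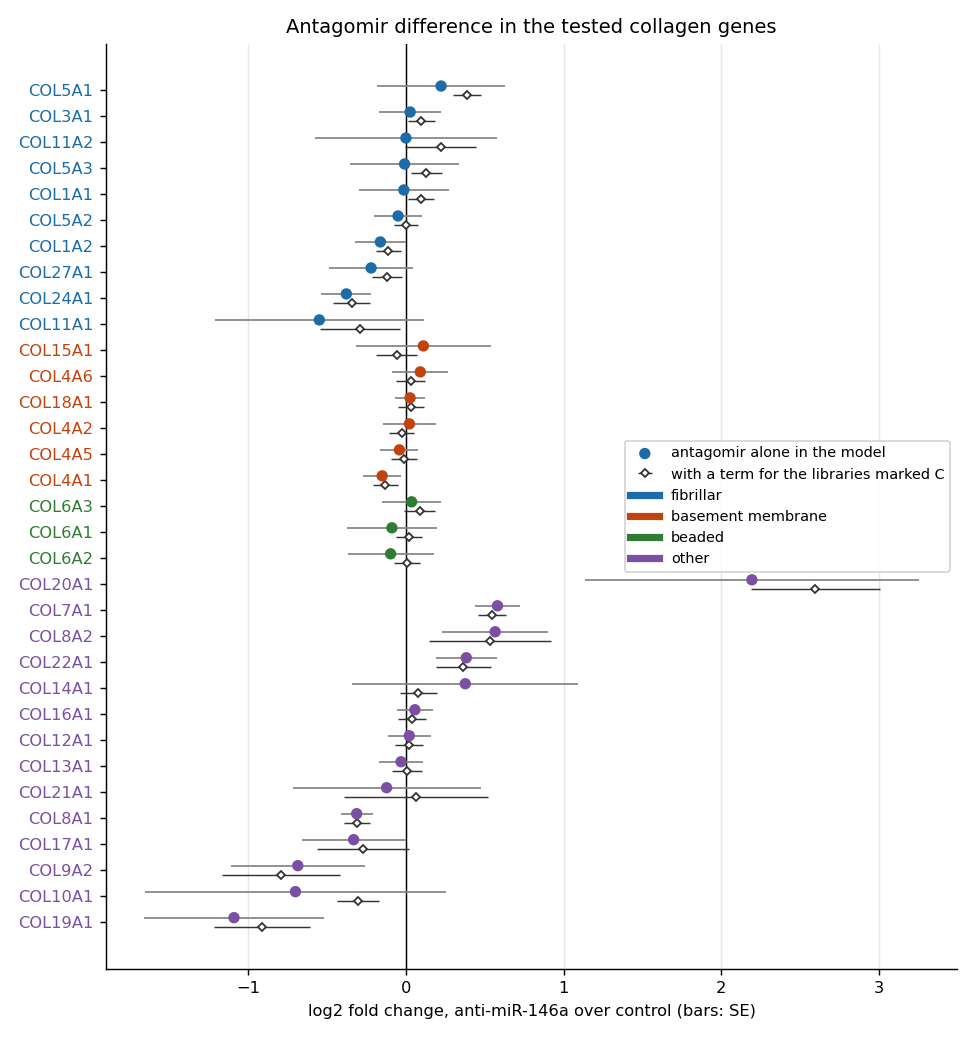
Log2 fold change of anti-miR-146a over control (x axis, on the log2(value + 1) scale) for the 33 tested collagen genes, coloured by class, from the model with the antagomir alone (filled circles) and with a term for the C libraries (open diamonds). Bars are standard errors; 15 genes lie above 0 and 18 below in the model with the antagomir alone.

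No fibrillar collagen passed the test with the antagomir alone in the model, and 9 of 10 tested had both C libraries above the other 3. COL1A1 and COL1A2 encode the chains of type I collagen, the most abundant collagen of fibrous tissue. COL1A1 had 23684, 24251 and 35200 normalized reads in anti-miR-146a libraries A, B and C, against 20882 and 36154 in control libraries B and C. Its 2 C libraries were the highest and the groups overlapped, with a log2 fold change of -0.01 (SE 0.28). COL1A2 had 15759, 15867 and 18771 normalized reads in anti-miR-146a libraries, against 16388 and 21398 in control libraries, and its log2 fold change was -0.16 (SE 0.16). The groups overlapped there too, and both C libraries were again the highest.

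COL3A1, the chain of type III collagen that co-assembles with type I, had 4396, 4238 and 5253 normalized reads in anti-miR-146a libraries A, B and C, against 3679 and 5556 in control libraries B and C. The control libraries enclosed the anti-miR-146a libraries, and the log2 fold change was 0.03 (SE 0.20). Its neighbour COL5A2, a chain of type V collagen, had 6003, 5836 and 6919 in anti-miR-146a libraries, against 5632 and 7391 in control libraries, with a log2 fold change of -0.05. Again the control libraries lay on both sides of the other group.

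COL5A1, the main chain of type V collagen, which regulates fibril diameter, had 3519, 3760 and 6556 normalized reads in anti-miR-146a libraries A, B and C, against 2514 and 5717 in control libraries B and C. Anti-miR-146a C was the highest library and control B the lowest, and the groups overlapped because control C exceeded anti-miR-146a A and B. The log2 fold change was 0.22 (SE 0.41) with the antagomir alone, with an adjusted p of 0.875 in limma, and 0.39 (SE 0.09) with the C term, with an adjusted p of 0.00986. The difference was 0.58 between the B libraries and 0.20 between the C libraries. With the antagomir alone, the log2 fold change was -0.060 without anti-miR-146a C and -0.37 without control B. COL5A3 and COL11A1, minor fibrillar chains, followed the C libraries as well. COL5A3 had 477, 460 and 775 normalized reads in anti-miR-146a libraries, against 400 and 775 in control libraries, and COL11A1 had 19.8, 15.5 and 60.7 in anti-miR-146a libraries, against 24.8 and 62.5 in control libraries.

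COL24A1, a fibrillar collagen named here after its values were seen, was the exception among fibrillar genes in that its C libraries were not both above the rest. It had 238, 206 and 266 normalized reads in anti-miR-146a libraries A, B and C, against 291 and 322 in control libraries B and C. All 3 anti-miR-146a libraries were below both controls, and the log2 fold change was -0.38 (SE 0.16) with an adjusted p of 0.446 in limma. With the C term it was -0.34, with an adjusted p of 0.0615.

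No basement membrane collagen passed the test in either model. COL4A1 and COL4A2, whose chains form the common type IV network, lie head to head on chromosome 13 at 110148963-110307149 and 110305812-110513027 (GRCh38) and overlap each other. The strand setting of the authors' counting is not known from the sources used here, so reads in the overlap cannot be assigned. COL4A1 had 22159, 23209 and 24101 normalized reads in anti-miR-146a libraries A, B and C, against 24212 and 27233 in control libraries B and C. All anti-miR-146a libraries were below both controls, though by a small margin, and the log2 fold change was -0.15 (SE 0.12). COL4A2 had 29384, 32169 and 24256 in anti-miR-146a libraries, against 30439 and 25686 in control libraries, with overlapping groups and both C libraries lowest. Its log2 fold change was 0.02 (SE 0.17), and the ratio of COL4A1 to COL4A2 per kilobase was 0.987, 0.944 and 1.30 in anti-miR-146a libraries, against 1.04 and 1.39 in control libraries. That ratio was highest in the C libraries of both groups.

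COL4A5 and COL4A6 encode chains of the type IV network found in restricted basement membranes. COL4A5 had 1951, 2014 and 2089 normalized reads in anti-miR-146a libraries A, B and C, against 1873 and 2300 in control libraries B and C, and COL4A6 had 845, 927 and 662 in anti-miR-146a libraries, against 834 and 681 in control libraries. The C libraries were highest for COL4A5 and lowest for COL4A6. COL4A3 and COL4A4, chains of the kidney glomerulus and lung alveolus network, had at most 3 reads in any library. COL18A1, the source of the angiogenesis inhibitor endostatin, had 1628, 1686 and 1654 normalized reads in anti-miR-146a libraries, against 1573 and 1679 in control libraries, with a log2 fold change of 0.03 (SE 0.09). COL15A1, a related basement membrane collagen, had 204, 225 and 107 in anti-miR-146a libraries, against 227 and 109 in control libraries, with both C libraries lowest.

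The type VI chains did not pass the test in either model, and both C libraries were highest in each. COL6A1 had 37602, 40115 and 59612 normalized reads in anti-miR-146a libraries A, B and C, against 37425 and 60602 in control libraries B and C. COL6A2 had 39525, 42276 and 61057 in anti-miR-146a libraries, against 39589 and 63021 in control libraries. COL6A3, which carries a miR-146a-5p match, had 56535, 53868 and 60489 in anti-miR-146a libraries, against 46286 and 66456 in control libraries. The groups overlapped for all 3 genes, and the log2 fold changes were -0.09 (SE 0.28), -0.10 (SE 0.27) and 0.04 (SE 0.19) in that order. The ratio of COL6A1 to COL6A2 per kilobase lay between 0.957 and 0.984 in anti-miR-146a libraries and between 0.953 and 0.969 in control libraries, so that this ratio varied little while both values varied widely. COL6A5 and COL6A6 were not tested.

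**Figure D4:**
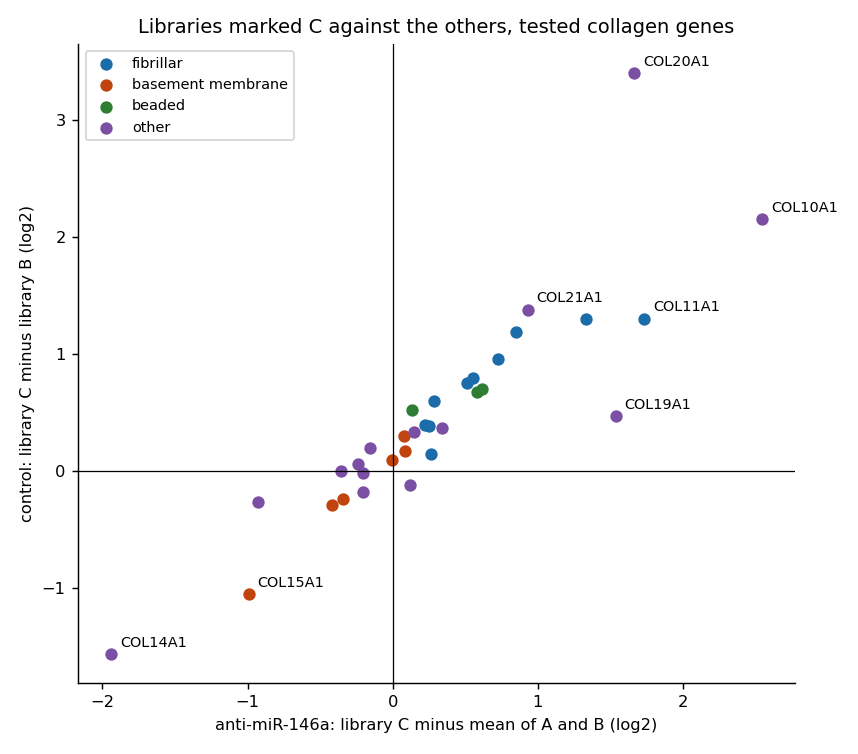
Difference of the C library from the others on the log2 scale, in anti-miR-146a libraries (x axis) and in control libraries (y axis), 1 point per tested collagen gene, coloured by class. Fibrillar and beaded genes lie above 0 in both groups, and the medians over tested collagen genes were 0.23 (anti-miR-146a, C minus A and B) and 0.37 (control, C minus B).

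Over all classes, 18 of 33 tested collagen genes (54.5%) had both C libraries above the other 3, against 24.3% of all tested genes, and 5 (15.2%) had both below, against 20.3%. COL21A1 passed the filter only through the C libraries, where it is high, so its place among the 18 supports nothing. This description was chosen after the data were seen, and no test was made of it. By class, both C libraries were above in 9 of 10 fibrillar, 3 of 3 beaded, 1 of 6 basement membrane and 5 of 14 other genes. The share of the table's reads in collagen genes was 3.78%, 3.86% and 4.18% in anti-miR-146a libraries A, B and C, against 3.45% and 4.40% in control libraries B and C. The chaperone HSPA5, which folds secreted proteins, was lowest in the C libraries, with 41778, 44893 and 20945 normalized reads in anti-miR-146a libraries A, B and C, against 50550 and 24938 in control libraries B and C. Other tested modification and folding genes differed. COLGALT1, FKBP10 and FKBP14 had both C libraries above the other 3, CRTAP had both below, and COLGALT2 had neither. The part of these genes in the collagen pattern was not tested.

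Among the other collagens, COL7A1 had the smallest unadjusted p. COL7A1 encodes type VII collagen, which forms the anchoring fibrils that fasten the basement membrane to the tissue below it, and lies at chromosome 3, 48564073-48595267 (GRCh38, minus strand). It had 9328, 8829 and 7107 normalized reads in anti-miR-146a libraries A, B and C, against 5593 and 5586 in control libraries B and C. Every anti-miR-146a library was above both controls, and the means were 8421 ± 1165 (SD, n = 3) and 5590 ± 4.95 (SD, n = 2). The log2 fold change was 0.58 (SE 0.14), with an adjusted p of 0.341 in limma with the antagomir alone and 0.00132 with the C term, where it was 0.55 (SE 0.09). The difference was 0.66 between the B libraries and 0.35 between the C libraries. The authors' deposited table gave a fold change of 1.51 with an adjusted p of 0.0306, and DESeq2 on the recovered reads gave an adjusted p of 0.068. The other count tests on the recovered reads gave adjusted p-values of 0.361 (edgeR), 0.374 (edgeR with TMM) and 0.372 (limma voom).

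COL8A1, a short-chain collagen of hexagonal networks around blood vessels, had 1766, 1766 and 1922 normalized reads in anti-miR-146a libraries A, B and C, against 2351 and 2162 in control libraries B and C. All 3 anti-miR-146a libraries were below both controls. The log2 fold change was -0.31 (SE 0.10), with an adjusted p of 0.381 in limma with the antagomir alone and 0.0236 with the C term. With the letter as a block the adjusted p was 0.103 in limma, so that the call rests on the choice between these models. The block fits anti-miR-146a A exactly, so its fold change comes from the B and C libraries alone. COL8A2, the partner chain, was near the filter, with 13.2, 12.8 and 11.1 normalized reads in anti-miR-146a libraries, against 8.59 and 7.46 in control libraries, and a log2 fold change of 0.57 (SE 0.33).

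COL20A1, a fibril-associated collagen, had 24, 17 and 61 reads in anti-miR-146a libraries A, B and C, against 1 and 21 reads in control libraries B and C. The lowest anti-miR-146a library was below control C, so the groups overlapped, and a single control library with 1 read had much weight in its log2 fold change of 2.19 (SE 1.06). With the C term, in a fit that includes that library, it was 2.60 with an adjusted p of 0.00116 in limma. Without control B, which leaves 1 control library, and with the antagomir alone, it was 0.50. COL20A1 passed the filter only with its anti-miR-146a libraries, where it is high, so its call with the C term supports nothing. COL22A1, a collagen of tissue junctions, had 89.7, 80.3 and 71.8 normalized reads in anti-miR-146a libraries, against 60.1 and 62.5 in control libraries. All its anti-miR-146a libraries were above both controls, with a log2 fold change of 0.38 (SE 0.19).

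COL12A1 had 42704, 43470 and 38613 normalized reads in anti-miR-146a libraries A, B and C, against 38287 and 43709 in control libraries B and C, with overlapping groups and a log2 fold change of 0.02 (SE 0.14). COL10A1, a network collagen of growth-plate cartilage, had 99.1, 121 and 645 in anti-miR-146a libraries, against 153 and 681 in control libraries. Its C libraries were far above the other 3, its log2 fold change was -0.70 (SE 0.95), and it lies within the opposite-strand gene NT5DC1. COL14A1, a fibril-associated collagen named after its values were seen, ran the other way, with 616, 564 and 153 in anti-miR-146a libraries, against 498 and 168 in control libraries. COL19A1, another fibril-associated collagen, had 12.3, 22.8 and 50.6 in anti-miR-146a libraries, against 44.9 and 62.5 in control libraries. Its log2 fold change was -1.09 (SE 0.57), and -0.91 with the C term, with an adjusted p of 0.0556 in limma. COL9A2 of cartilage had 11.3, 13.7 and 6.07 in anti-miR-146a libraries, against 18.1 and 14.9 in control libraries. COL16A1, also fibril-associated, had 1011, 1069 and 903 in anti-miR-146a libraries, against 960 and 946 in control libraries, and the transmembrane COL13A1 had 521, 549 and 594 in anti-miR-146a libraries, against 504 and 635 in control libraries. The remaining tested members, COL11A2, COL17A1, COL21A1 and COL27A1, had overlapping groups and both C libraries above the other 3.

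**Figure D5:**
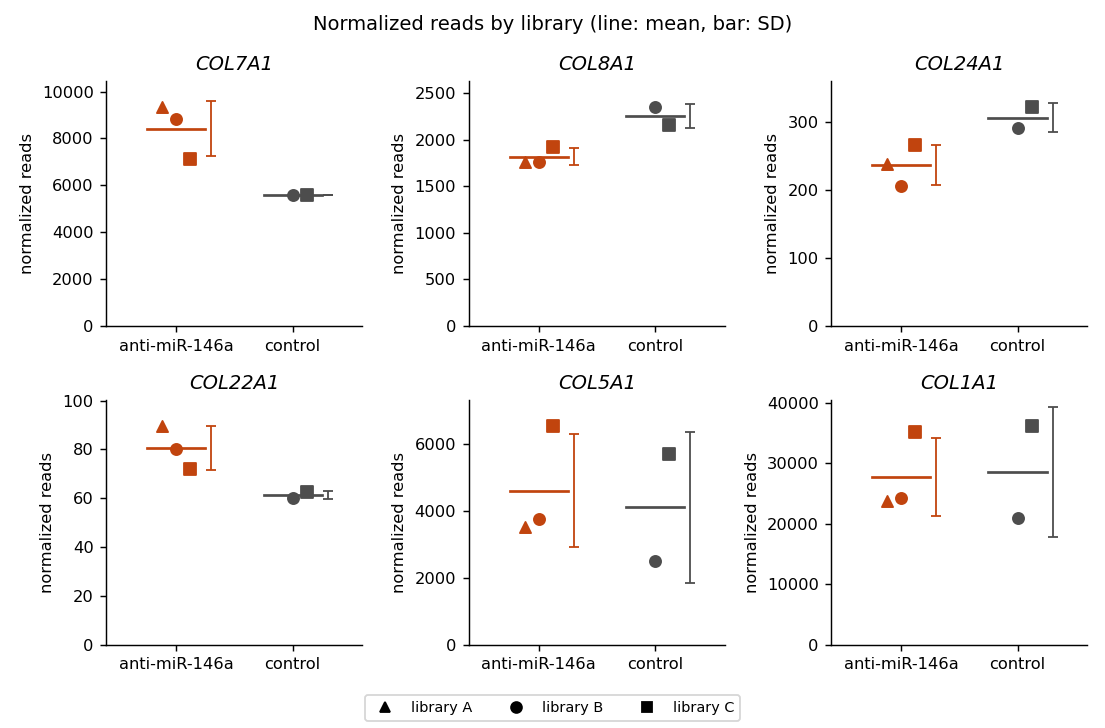
Normalized reads by library (y axis) for COL7A1, COL8A1, COL24A1, COL22A1, COL5A1 and COL1A1, anti-miR-146a libraries at left and control libraries at right, with the letter as marker shape, the mean as a line and the SD as a bar. COL7A1 has all anti-miR-146a libraries (7107 to 9328) above both controls (5586 and 5593), while COL5A1 and COL1A1 have overlapping groups with the C libraries highest.

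Genes that fold, modify, export, process and degrade collagen were taken from a list of 70, of which 28 had a row in the table as used here and 24 were tested. None of the 5 listed cross-linking genes had a row. Only 6 of 19 modification and folding genes and 4 of 15 breakdown genes had one, so the counts below do not cover the whole list. In limma with the antagomir alone 0 of 24 were called. With the C term 1 of 24 was called, a smaller share than the 15.4% of all tested genes called in that model, and it was lower: DDR2, a receptor kinase for fibrillar collagen. DDR2 had 2710, 2380 and 3301 normalized reads in anti-miR-146a libraries A, B and C, against 3712 and 3603 in control libraries B and C, and its groups did not overlap. Its log2 fold change with the C term was -0.37, with an adjusted p of 0.0218 in limma. The 6 most abundant tested members, with log2 fold changes from the antagomir alone, were FN1 (0.01, SE 0.19), which seeds collagen fibrils, the surface receptor CD44 (-0.10, SE 0.20), the chaperone HSPA5 (-0.06, SE 0.42), the protease CTSB (-0.02, SE 0.24), the collagen chaperone FKBP10 (-0.03, SE 0.11) and the fibril-binding proteoglycan DCN (0.14, SE 0.10). All anti-miR-146a libraries were above both controls for DCN, as for 16.5% of all tested genes. They were below both controls for FAP and COLGALT2 as well as DDR2, a pattern found in 13.5%. With the C term HSPA5 was -0.24 (SE 0.08), with an adjusted p of 0.060 in limma.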

How the data were processed

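Per the labels' protocols, ribosomal RNA was removed from total RNA and libraries were built with a KAPA HyperPrep RiboErase kit. The submitters' processing notes name Trimmomatic 0.35, STAR 2.5.1b, DESeq2 1.22.2 and the build GRCh38. No source used here gives the counter, its strand setting or the annotation. The deposited signal of each gene and library is a read count divided by a size factor, and every value is a whole multiple of the library's smallest step within 1e-06, so that reads were recovered. The deposited table also gives the authors' fold change (a linear ratio), p-value and adjusted p-value. Its 18568 rows are part of the genes, so that read sums are not full depths. Deposited columns name an antagomir and a letter; they were tied to a group, not to a replicate number. 

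The design allowed for counts or for a normalized signal, and the values were a signal, so limma 3.58.1 (R 4.3.3) with its trend option was used on log2(value + 1). Fold changes are on the log2(value + 1) scale, in which the added 1 shrinks those of low genes. They compare means of logs and can still exceed those of a count model. COL20A1 was 2.19 on this scale and 1.69 in DESeq2. Genes with at least 10 normalized reads in at least 2 libraries (6317) were tested, p-values were adjusted by Benjamini-Hochberg over them, and an adjusted p under 0.05 was the threshold. Fits were tested on simulated data. Alternatives were edgeR 4.0.16 (with the deposited scaling and with TMM), DESeq2 1.42.0 and limma voom on recovered reads, pseudocounts of 0.1 and 5, no filter or a value of at least 50, thresholds of 0.01 and 0.10, a term for the C libraries, the letter as a block, and leaving out libraries. The members and lists were chosen with earlier results of these data known. Named genes were the up to 6 members of each class highest per kilobase, the 4 highest and 4 lowest by log2 fold change, any with an adjusted p under 0.05, and neighbouring pairs. Exons, 3′ UTRs and overlaps came from GENCODE 29, whose positions equalled the deposited ones in all 17390 rows sharing a versioned gene ID, and 20 of the 44 collagen genes overlap a gene on the opposite strand. Counting intervals cover counting error only.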

Additional observations from a re-analysis of the deposited data

How the results depend on the processing

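Over all tested genes, 0 passed with the antagomir alone, and 50 with DESeq2, 975 with the C term and 1555 without both C libraries (24.6%). Collagen calls were 0 with the antagomir alone and 4 with the C term. COL20A1 is among the 4 but passed the filter only with the libraries where it is high, so its call supports nothing. Without both C libraries 1 control library was left, and the median log2 fold change of tested collagen genes was 0.082. Leaving out 1 library each gave 0 to 12 calls over all genes (12 without anti-miR-146a C) and 0 to 0 in collagen genes, and the median log2 fold change of collagen genes ran from -0.25 to 0.14. The miR-146a-5p matches fell to 1 gene with 8mers only (2.27% of collagen genes, against 3.93% of the protein-coding genes with a 3′ UTR). COL7A1 lay between 0.50 and 0.70 in every leave-one-out fit, and COL8A1 between -0.37 and -0.25.

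The letters name no shared culture, so the replicate block is a check only. Anti-miR-146a A is the only library with its letter, so the block fits it exactly. Its fold changes equal those of the fit without anti-miR-146a A. With the block, 636 genes and 3 collagen genes (COL20A1, COL5A1 and COL7A1) were called. Log2 fold changes turned sign in COL6A2 (0.025), COL6A1 (0.038), COL13A1 (0.014), COL1A1 (0.089), COL5A3 (0.10), COL4A2 (-0.0014) and COL15A1 (-0.018). Control B deviated with anti-miR-146a A (r 0.53) and B (r 0.50) and against C (r -0.66); with 2 controls these mirror each other.

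Other signs also reversed. With the C term they were COL6A2 0.0068, COL6A1 0.020, COL13A1 0.0076, COL1A1 0.10, COL5A2 0.00011, COL5A3 0.13, COL4A2 -0.027 and COL15A1 -0.058. Without both C libraries they were COL6A2 0.046, COL6A1 0.053, COL13A1 0.086, COL1A1 0.20, COL5A2 0.072, COL5A3 0.23, COL4A5 0.082 and COL15A1 -0.083, and with TMM COL3A1 was -0.0074. Across leave-one-out fits the log2 fold change ran from -1.77 to 0.37 in COL10A1, -1.20 to 0.10 in COL11A1, -0.073 to 0.12 in COL12A1, -0.20 to 0.14 in COL13A1, -0.40 to 1.16 in COL14A1, -0.41 to 0.64 in COL15A1, -0.020 to 0.074 in COL18A1, -0.41 to 0.38 in COL1A1, -0.35 to 0.031 in COL1A2, -0.27 to 0.32 in COL3A1, -0.10 to 0.15 in COL4A2, -0.19 to 0.11 in COL4A5, -0.054 to 0.24 in COL4A6, -0.37 to 0.82 in COL5A1, -0.25 to 0.15 in COL5A2, -0.48 to 0.47 in COL5A3, -0.44 to 0.26 in COL6A1, -0.43 to 0.24 in COL6A2 and -0.22 to 0.30 in COL6A3. The cause was not tested. With 2 and 3 libraries a group, small differences cannot be told from the spread, and 11 collagen genes were too low to test.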
